A study of Mus musculus with 12 samples.

Results

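Khdc3, Zbed3, Btg4, Oog2 and Tcl1b1 are mouse genes whose mRNA is made in the oocyte and stored for the egg and the early embryo. They were taken by gene symbol from the platform's probe annotation. Each had 1 probe listing it alone, so 5 probes carried the 5 genes, out of 22575 probes on the array and 3089 genes with such a probe. Another 2 probes listed a member beside a second gene (Zbed3 with Pde8b, and Oog2 with Trappc2), and their values are given apart.

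The arrays compared total RNA of aged and young mouse oocytes in 2 colours on 12 arrays, each of which carried both, labelled with Cy3 or Cy5. The RNAs formed 3 pairs. Pair 1 set aged extract 1 against young extract 1, pair 2 set aged extract 2 against young extract 5, and pair 3 set aged extract 3 against young extract 2. The labels number 2 labelled preparations per pair (labelling 1 and labelling 2 here) without saying how they differ, and each was hybridised in both dye orientations, which gave 4 arrays per pair. For the age ratios these 4 arrays were counted as 1 replicate, so n = 3. The labels give no strain, no age of the animals, no oocyte stage and no number of oocytes, and they do not say whether the numbered RNAs came from separate animals. The p-values of the age ratios therefore measure the spread between these RNA pairs. The dye and between-pair tests below took the 12 arrays as separate observations, so their p-values measure the spread between arrays.

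Khdc3 (also called Filia) encodes a KH-domain protein of the subcortical maternal complex, a multi-protein assembly under the oocyte cortex that is inherited by the embryo and needed for normal cleavage. Zbed3 encodes a zinc finger protein that joins the same complex in the mouse and also binds Axin in Wnt signalling. Btg4 encodes an adaptor that brings the CCR4-NOT deadenylase to maternal mRNAs, so that they are cleared as the oocyte matures and development begins. Oog2 belongs to the oogenesins, leucine-rich repeat proteins of the PRAME-like family that are made in oocytes and early embryos. Tcl1b1 belongs to the Tcl1 family, whose founding member binds and co-activates the kinase Akt, and which is active in mouse oocytes and early embryos.

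The 100 bases before the annotated start of each gene are shown because they place the 5 genes in the genome. Sequences and positions are from RefSeq on the build GRCm38.p6, all on the plus strand, and 5 of 5 genes matched by symbol. Capitals mark every CANNTG (an E-box, the motif class bound by basic helix-loop-helix factors) and every TATAAA. For Zbed3 the first of 3 annotated starts is shown.
Khdc3, chr9:73102298-73102397: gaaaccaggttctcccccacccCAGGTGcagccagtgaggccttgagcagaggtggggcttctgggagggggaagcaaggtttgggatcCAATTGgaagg
Zbed3, chr13:95323505-95323604: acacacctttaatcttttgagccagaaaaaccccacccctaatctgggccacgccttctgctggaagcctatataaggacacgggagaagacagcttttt
Btg4, chr9:51115901-51116000: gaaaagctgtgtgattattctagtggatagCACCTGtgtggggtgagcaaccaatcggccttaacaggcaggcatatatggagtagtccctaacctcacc
Oog2, chr4:144190617-144190716: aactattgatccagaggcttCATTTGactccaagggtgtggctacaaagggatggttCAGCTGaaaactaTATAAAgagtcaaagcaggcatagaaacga
Tcl1b1, chr12:105159604-105159703: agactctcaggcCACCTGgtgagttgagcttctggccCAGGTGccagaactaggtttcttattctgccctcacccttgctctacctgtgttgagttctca
Over the full 250 bases before the start, CANNTG was found 5 times for Khdc3, 4 times for Oog2, 3 times for the first start of Zbed3, and 2 times each for Btg4 and Tcl1b1. This motif is common: 66.2% of 32851 RefSeq windows of that length held it, with a median of 1. TATAAA, searched on both strands, lay 30 bases before the start of Oog2 (first base of the motif) and 208 bases before the second start of Zbed3, and 12.4% of all windows held it. CACGTG, one form of CANNTG, was in none of the members' windows and in 6.02% of all windows. These counts describe letters in the windows and say nothing of binding.

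The deposited values were taken to be log10 ratios because they stop at 2 in either direction, which does not prove the base. They are given here as log2 ratios with each array's median at 0, so the size of every ratio rests on that base. No source used here states which way they run. They were read as Cy5 over Cy3, and the sign was turned on arrays with aged RNA in Cy3, so that a positive value means more signal from aged RNA. This direction was assumed. In the other reading, the values already are aged over young on every array and no sign is turned, and means in that reading are called unturned here. The probe annotation also limits what a gene name means: over 867 genes with several probes of their own, the mean ratios of the first 2 probes agreed weakly, with a Spearman correlation across genes of 0.168 (0.0566 unturned). A ratio holds no expression level, so neither the abundance of these mRNAs nor the identity of the cells could be checked. Fewer transcripts per oocyte and a smaller share of total RNA cannot be told apart.

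The arrays were uneven. Their SD over all probes ran between 0.391 and 1.23 on the log2 scale, and the 4 arrays of pair 1 were the 4 widest. As deposited, with no sign turned, arrays of the same pair and orientation correlated over all probes at r between 0.364 and 0.655. Across orientations of the same pair, r fell between -0.309 and -0.0621 in pair 1, between 0.0332 and 0.228 in pair 2 and between 0.106 and 0.275 in pair 3. With the sign turned to aged over young, the r across orientations take the opposite sign, and those within an orientation stay the same. None of the members' values was missing or at the limit of the range.

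Between aged and young oocytes, none of the 5 genes passed the test. Their mean log2 ratios lay between 0.04 (Tcl1b1) and 0.31 (Btg4), which is 1.03 to 1.24 times the young signal, with SDs of 0.21 to 0.52 over the 3 pairs. By limma with Benjamini-Hochberg adjustment over 21370 rows (named genes and unnamed or shared probes), the adjusted p-values of the 5 genes ran between 0.716 and 0.953. The background was the same: 0 of 21370 rows passed (0%), although 1402 had an unadjusted p under 0.05, of which 595 were higher and 807 lower in aged oocytes.
All 5 means were above 0 (3 of 5 unturned, between -0.92 for Oog2 and 0.63 for Khdc3). Over all rows, 12156 of 21370 means (56.9%) were above 0 (12513 unturned). The pairs of the 5 genes did not share a direction. In 0 of the 5 genes did the 3 pairs have 1 sign, whereas 17.1% of all rows had all 3 pairs above 0 and 12.7% had all 3 below. In 4 genes (all but Btg4) pair 1 had the sign opposite to pairs 2 and 3.

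**Figure D1:**
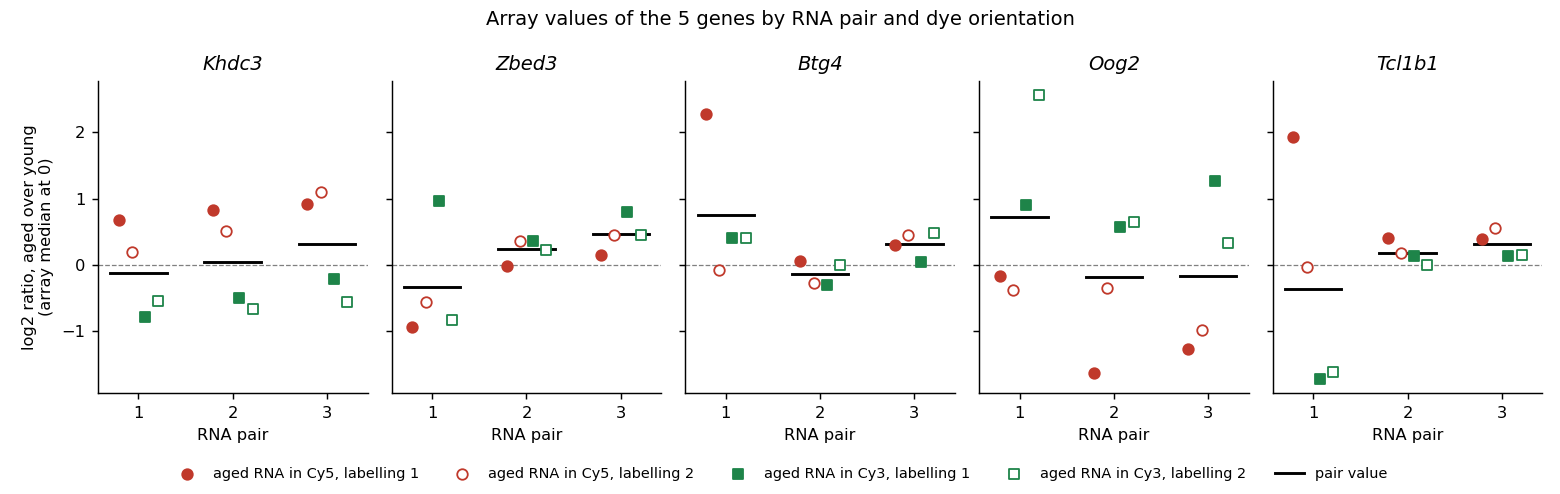
Log2 ratio of aged over young oocyte RNA for each of the 5 genes, by RNA pair (horizontal axis). Red circles are arrays with aged RNA in Cy5 and green squares arrays with aged RNA in Cy3, filled for labelling 1 and open for labelling 2, and the black bar is the pair value. In Khdc3 the 6 red circles are above 0 and the 6 green squares below, and in Oog2 the reverse. In Tcl1b1 the 8 arrays of pairs 2 and 3 are above 0 (4 of the 8 unturned).

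With the sign turned, Khdc3 showed no difference between aged and young oocytes beyond the spread of the pairs, and its arrays split by dye. In pair 1, its log2 ratios were 0.68 and 0.19 with aged RNA in Cy5, and -0.79 and -0.55 with aged RNA in Cy3. Pair 2 gave 0.82 and 0.51 with aged RNA in Cy5, and -0.50 and -0.66 with aged RNA in Cy3. Pair 3 gave 0.91 and 1.10 with aged RNA in Cy5, and -0.22 and -0.57 with aged RNA in Cy3. Every array with aged RNA in Cy5 was thus above 0 and every array with aged RNA in Cy3 below it, with no overlap. The pair values were -0.12, 0.04 and 0.31, with a mean of 0.08 ± 0.21 (SD, n = 3). The 95% interval of the mean was -0.28 to 0.44, or 0.821 to 1.36 times the young signal (limma adjusted p = 0.874). Without pair 3 the mean was -0.04, on the other side of 0. Unturned, the pair values were 0.55, 0.63 and 0.70, with a mean of 0.63 ± 0.07 (SD, n = 3). The 95% interval of that mean was 0.34 to 0.91 (limma adjusted p = 0.0960).

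Zbed3, the other member of the subcortical complex, was above 0 in pairs 2 and 3 and mostly below it in pair 1. Its pair 1 arrays gave -0.94 and -0.56 with aged RNA in Cy5, and 0.97 and -0.84 with aged RNA in Cy3. In pair 2 the arrays gave -0.02 and 0.36 with aged RNA in Cy5, and 0.36 and 0.22 with aged RNA in Cy3. In pair 3 they gave 0.14 and 0.46 with aged RNA in Cy5, and 0.80 and 0.45 with aged RNA in Cy3. Of the 12 arrays, 8 were above 0, and 1 of these 8 was in pair 1. The pair values -0.34, 0.23 and 0.46 averaged 0.12 ± 0.41 (SD, n = 3), with a 95% interval of -0.37 to 0.61, or 0.772 to 1.52 times the young signal (limma adjusted p = 0.859). Leaving out pair 1 gave 0.35 and leaving out pair 3 gave -0.06.
The probe that lists Pde8b with Zbed3, genes that are neighbours in RefSeq, gave pair values of 0.80, -0.19 and -0.04 (mean 0.19 ± 0.54, SD, n = 3, limma adjusted p = 0.806). Its value in pair 1 came from 1 array of labelling 1 with aged RNA in Cy5, at 3.81, while the other arrays of all pairs lay between -0.83 and 0.77. The signs of both Zbed3 probes were opposite in each of the 3 pairs.

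Btg4, the adaptor of maternal mRNA decay, had the highest mean of the 5 with the sign turned, and it rested on pair 1. Unturned, its mean of 0.14 was below those of Khdc3 and Tcl1b1. Its first array there (labelling 1, aged RNA in Cy5) was at 2.28, its second at -0.08, and both arrays with aged RNA in Cy3 were at 0.40. In pair 2 the arrays gave 0.05 and -0.28 with aged RNA in Cy5, and -0.30 and -0.01 with aged RNA in Cy3. In pair 3 all 4 were above 0, at 0.30 and 0.44 with aged RNA in Cy5, and 0.04 and 0.48 with aged RNA in Cy3. Pairs 1 and 3 were thus above 0 and pair 2 just below it. The pair values 0.75, -0.13 and 0.32 averaged 0.31 ± 0.44 (SD, n = 3). The 95% interval was -0.20 to 0.82, or 0.871 to 1.77 times the young signal (limma adjusted p = 0.716), and 88.0% of all rows had a lower mean (58.8% unturned). Without pair 1 the mean was 0.09. Btg4 was the only member whose mean was above 0 under every processing alternative that was run.

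Oog2 split by dye like Khdc3, but in the opposite sense and by more. Pair 1 gave -0.17 and -0.38 with aged RNA in Cy5, and 0.90 and 2.56 with aged RNA in Cy3. Pair 2 gave -1.63 and -0.35 with aged RNA in Cy5, and 0.58 and 0.64 with aged RNA in Cy3. In pair 3, the arrays gave -1.27 and -0.99 with aged RNA in Cy5, and 1.26 and 0.32 with aged RNA in Cy3. The 6 arrays with aged RNA in Cy5 were all below 0 and the 6 with aged RNA in Cy3 all above it. The pair values were 0.73, -0.19 and -0.17, with a mean of 0.12 ± 0.52 (SD, n = 3) and a 95% interval of -0.45 to 0.69, or 0.731 to 1.62 times the young signal (limma adjusted p = 0.875). The mean was -0.18 without pair 1 and -0.01 when the arrays were scaled to 1 spread.
The probe listing Oog2 with Trappc2 gave another picture. With the sign turned, it was below 0 on 11 of 12 arrays, with a range of -1.42 to 0.38 and a median of -0.36. The 1 array above 0 was the labelling 1 array of pair 1 with aged RNA in Cy5. Its pair values -0.71, -0.21 and -0.46 averaged -0.46 ± 0.25 (SD, n = 3), or 0.727 times the young signal, but the adjusted p was 0.716 by limma. Unturned, it was above 0 on 7 of 12 arrays and its mean was 0.31, of the opposite sign. RefSeq places Oog2 and Trappc2 on different chromosomes, so the transcript behind this probe is not known. The difference between both Oog2 probes was not tested.

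With the sign turned, Tcl1b1 was above 0 on all 8 arrays of pairs 2 and 3, with log2 ratios of 0.0014 to 0.56, and passed no test. Pair 2 gave 0.40, 0.18, 0.13 and 0.0014, and pair 3 gave 0.38, 0.56, 0.13 and 0.15, in the order labelling 1 and 2 with aged RNA in Cy5, then in Cy3. The 4 arrays of pair 1 were far apart, at 1.92 and -0.03 with aged RNA in Cy5, and -1.73 and -1.61 with aged RNA in Cy3. The pair values -0.36, 0.18 and 0.31 averaged 0.04 ± 0.35 (SD, n = 3), with a 95% interval of -0.41 to 0.49, or 0.754 to 1.40 times the young signal (limma adjusted p = 0.953). The mean was 0.24 without pair 1, -0.03 without pair 2 and -0.09 without pair 3. Unturned, 4 of the 8 arrays of pairs 2 and 3 were above 0 and 4 below.

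A balanced dye swap separates the part of a ratio that turns with the samples from the part that keeps its sign. The part that keeps its sign was estimated for each row from the values as deposited, over both orientations, in a limma model of 12 arrays with a coefficient for each pair. It is called the dye effect here, and it is also the mean that the values would have if they already were aged over young. Of all 21370 rows, 4906 had a dye effect by adjusted p under 0.05 (23%), 2491 above 0 and 2415 below.
Khdc3 and Oog2 were the 2 members called. As deposited, Khdc3 was above the array median on 12 of 12 arrays, between 0.19 and 1.10 with a median of 0.62. This happened for 1.95% of the 20450 rows measured on every array. Its dye effect was 0.63 on the log2 scale (95% interval 0.44 to 0.82, limma adjusted p = 0.00496), and 97.7% of rows had a lower one. Oog2 was below the median on 12 of 12 arrays as deposited, between -2.56 and -0.17 with a median of -0.77, as were 3.41% of rows. Its dye effect was -0.92 (95% interval -1.26 to -0.59, limma adjusted p = 0.00572), and 0.81% of rows had a lower one.
By pair, the deposited means were close, at 0.55, 0.63 and 0.70 for Khdc3 and at -1.01, -0.80 and -0.96 for Oog2. Both calls needed pairs 2 and 3. Without pair 2 the effects were 0.63 for Khdc3 and -0.98 for Oog2 (limma adjusted p = 0.0808 for each), and without pair 3 they were 0.59 and -0.90 (limma adjusted p = 0.0751 for each). In those fits 0 rows passed in all, with 6186 and 6079 rows at an unadjusted p under 0.05.
If the deposited values already were aged over young, the same numbers would be the age ratios. Khdc3 would then average 0.63 ± 0.07 and Oog2 -0.92 ± 0.11 over the 3 pairs (SD, n = 3). Neither passed on that reading (limma adjusted p = 0.0960 for Khdc3 and 0.0955 for Oog2). No row in 21370 did (0%), with 5566 at an unadjusted p under 0.05.
The other members had no dye effect past the threshold. Tcl1b1 had 0.53 (95% interval 0.08 to 0.98, limma adjusted p = 0.0797), which came from pair 1, with deposited pair means of 1.31, 0.11 and 0.17. Btg4 had 0.14 and Zbed3 -0.21 (limma adjusted p = 0.544 and 0.278).

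**Figure D2:**
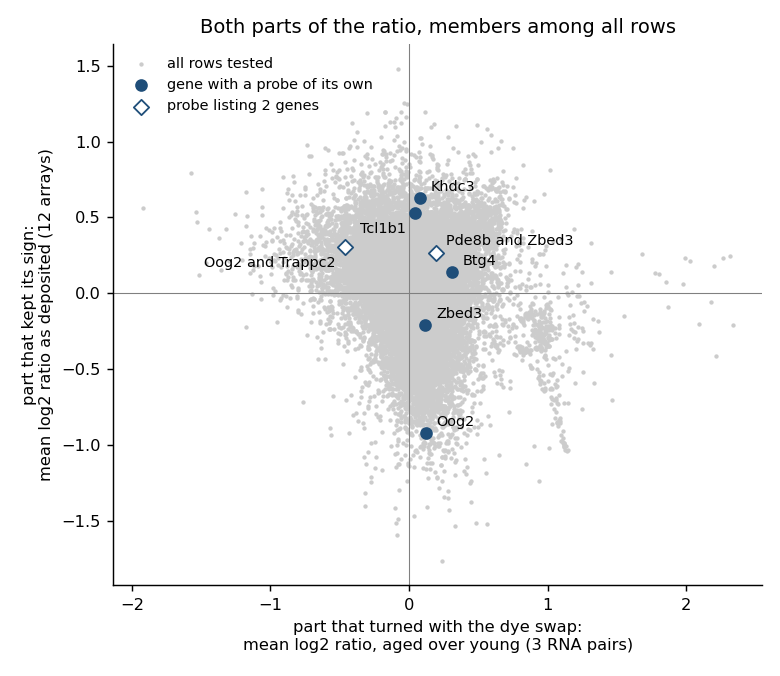
Mean log2 ratio of aged over young (horizontal axis, 3 RNA pairs) against the dye effect, the mean log2 ratio as deposited (vertical axis, 12 arrays). Grey points are all 21370 rows, filled circles the 5 genes and open diamonds the 2 shared probes. The 5 genes lie between 0.04 and 0.31 across the plot, while Khdc3 (0.63) and Oog2 (-0.92) lie toward opposite edges of the vertical axis.

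The same model asked whether the 3 pairs differed from each other by more than the arrays within a pair. Over all rows 1236 differed (5.78%). None of the 5 genes did, with limma adjusted p-values between 0.306 for Oog2 and 0.734 for Tcl1b1.
The labellings gave small and unequal means. With labelling 1 alone the means were 0.15 for Khdc3, 0.22 for Zbed3, 0.46 for Btg4, -0.06 for Oog2 and 0.21 for Tcl1b1. With labelling 2 alone they were 0.01, 0.02, 0.16, 0.30 and -0.13 in the same order of genes. No member passed the test within either labelling.

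The partners of Khdc3 and Zbed3 in the subcortical complex were followed through a list of 21 genes of this complex and its maternal-effect partners. Of these, 3 had a probe of their own, and 0 of 3 passed the age test. Besides both members this was Ywhae, a phosphoserine-binding adaptor protein, at -0.25 ± 0.15 (SD, n = 3), with -0.40, -0.11 and -0.25 in pairs 1, 2 and 3 and an unturned mean of 0.0013.
Most partners were measured only by probes that also list another gene, so the values cannot be given to the partner alone. Such probes numbered 10, and 7 of the 10 had means below 0. Among them were 3 probes of the widely expressed actin regulator Cfl1. Their means were -0.26, -0.14 and -0.64 (0.33, 0.15 and -0.18 unturned). Leaving these 3 aside, there were 7 probes (including the one of Zbed3). Of these, 4 had means below 0, against 9214 of all 21370 rows, and 0 of 7 passed the age test. In 3 of the 7 probes the values were below -1 in pairs 1 and 3 but not in pair 2. This was not particular to the complex. The zona pellucida gene Zp2 gave -1.69, 0.56 and -2.41 (difference among pairs, limma adjusted p = 0.00104). The Cfl1 probe shared with Pcm1 gave -1.61, 0.43 and -0.75 (limma adjusted p = 0.00273). The probe of Ooep and Gsta2, of which Ooep is a core KH-domain protein of the complex, gave -1.61, 0.70 and -1.85 in pairs 1, 2 and 3 (mean -0.92 ± 1.41, SD, n = 3). The probe of Padi6, an oocyte peptidylarginine deiminase family member, and Arhgef10l gave -1.83, -0.01 and -1.12. One probe of Nlrp14 and Olfr701 gave -2.07, -0.12 and -2.36, while the other gave 0.44, 0.05 and 0.02. Unturned, the means were 0.18 for the Ooep probe, 0.04 for the Padi6 probe, and 0.12 and -0.49 for the Nlrp14 probes.
Pairs differed past the threshold for the Ooep probe (range between pairs 2.55, limma adjusted p = 0.00124) and for the first Nlrp14 probe (2.24, limma adjusted p = 0.0219). Without pair 2 these ranges were 0.24 and 0.29, and neither passed (limma adjusted p = 0.798 and 0.862). The Nlrp14 probe also missed the threshold without pair 3 (limma adjusted p = 0.0750). The Padi6 probe did not pass with all pairs (limma adjusted p = 0.0870). The probe of Tle6, a co-repressor family protein of the complex, and Ncln averaged -0.46 ± 0.47 (0.17 unturned), and that of Nlrp5 and Pvr 0.01 ± 0.09 (SD, n = 3). Khdc3 and Zbed3 had their highest value in pair 3, where the Ooep probe had its lowest.

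**Figure D3:**
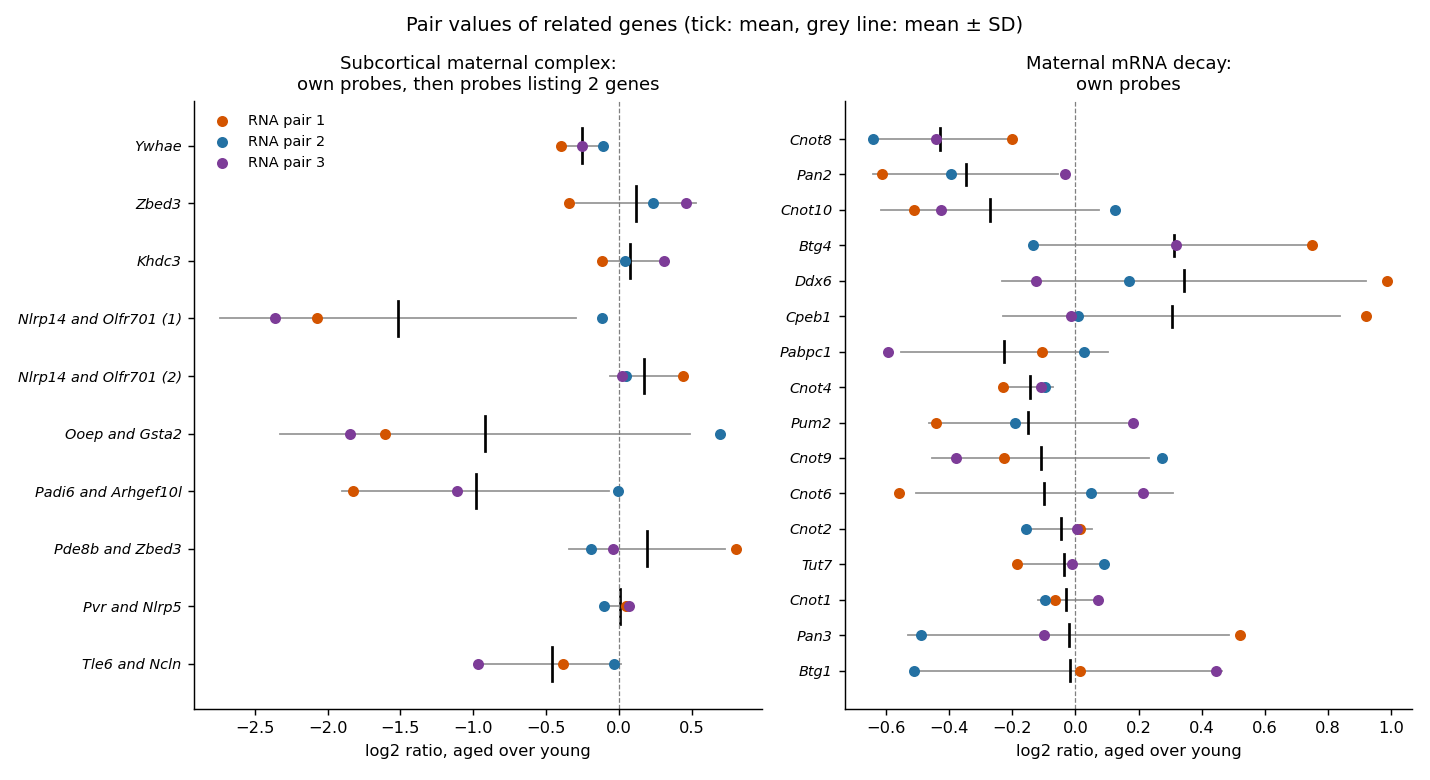
Log2 ratio of aged over young in RNA pairs 1 (orange), 2 (blue) and 3 (purple) for genes of the subcortical maternal complex (left) and of maternal mRNA decay (right). The black tick is the mean and the grey line the mean ± SD of 3 pairs. The probes of Ooep, of Padi6 and 1 of Nlrp14 are below -1 in pairs 1 and 3. In pair 2 they are between -0.12 and 0.70. On the right, 13 of 16 decay genes with a probe of their own have means below 0 (4 of 16 unturned). Over the 3089 named genes, 1542 means are below 0 and 1547 above (1952 above unturned).

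Genes of maternal mRNA decay and deadenylation, the process Btg4 acts in, numbered 48 on the list, and 16 had a probe of their own. None of the 16 passed the age test. In this list 3 means were above 0 and 13 below, with a median of -0.07, against 1547 above and 1542 below with a median of 0.0006 over the 3089 named genes. The means above 0 were those of Btg4, the RNA helicase gene Ddx6 and the polyadenylation factor gene Cpeb1. The smallest p-values in the list belonged to Cnot8 (a catalytic deadenylase of CCR4-NOT, -0.43 ± 0.22), Pan2 (the catalytic subunit of the PAN2-PAN3 deadenylase, -0.35 ± 0.29), Cnot10 (a CCR4-NOT subunit, -0.27 ± 0.34) and Btg4 (0.31 ± 0.44, SD, n = 3 each). All 4 had a limma adjusted p of 0.716. Unturned, all 4 means were above 0, at 0.50, 0.29, 0.41 and 0.14 in the same order. A further 43 probes list a decay gene with another gene, of which 19 had means above 0 and 24 below, with a median of -0.05, and 0 passed the age test. Over all 21370 rows, 12156 means were above 0 and 9214 below.
The balance of this list depended on the dye reading. The list median was 0.14 with aged RNA in Cy5 alone (11 of 16 means above 0) and -0.30 with aged RNA in Cy3 alone (5 of 16 above). No count over all rows was made for 1 orientation alone, so these 2 counts have no background. When the values were taken to be aged over young as deposited, 12 of 16 were above 0 and the median was 0.23. The named genes moved the same way, with 1952 of 3089 above 0 in that reading against 1547 with the sign turned. The dye effect was called in 7 of the 16 genes, against 23% of all rows and 564 of the 3089 named genes. In the 43 shared probes of the same list it was called in 4, so the 7 of 16 does not describe the whole list. With no centring of the arrays the list median was -0.19, and without pair 2 it was -0.11 (7 of 16 above).

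The families of the remaining members were thinly covered. Of 24 oogenesin and PRAME-like genes, Oog2 and Pramel4 had a probe of their own, and Pramel4 averaged 0.02 ± 0.12 (SD, n = 3, limma adjusted p = 0.969). A probe that lists Pramel38 with Gm6367 and AA792892 averaged -0.82 ± 0.25, below 0 in all 3 pairs, but did not pass (limma adjusted p = 0.573), and its unturned mean was 0.52. The probe of Pramel7 and Serping1 averaged -0.14 ± 0.05 (SD, n = 3) and -0.35 unturned. Of 8 Tcl1 family genes only Tcl1b1 had a probe of its own, and the probe of Tcl1 and Clmn averaged 0.25 ± 0.48 (SD, n = 3). Both families hold closely related copies, and how far their transcripts bind these probes was not tested.
Of 40 other oocyte-restricted or maternal-effect genes, 5 had a probe of their own, and 0 passed the age test. Dppa3, a maternal factor that protects the early embryo's DNA methylation, averaged 0.62 ± 0.20 and was above 0 in all 3 pairs. Kit, the receptor for Kit ligand on the oocyte surface, averaged -0.70 ± 0.36 and was below 0 in all 3 pairs. Obox3, an oocyte homeobox gene, averaged 0.38 ± 0.13, and the zona pellucida gene Zp2 -1.18 ± 1.55 (SD, n = 3 each). The limma adjusted p-values of these 4 genes lay between 0.653 and 0.716. The direction of 3 of them depends on the reading: the unturned means were -0.52 for Dppa3, 0.34 for Kit and -0.48 for Obox3, and that of Zp2 was -0.22. The same 3 genes had a called dye effect (limma adjusted p = 0.0232, 0.0287 and 0.0363), as 23% of all rows did.
Markers of other cells that oocyte RNA can carry did not pass the test either. Of 18 cumulus and granulosa cell markers 3 had a probe of their own, with means between -0.15 and 0.09 (1 above 0, 2 below). Of 16 blood and immune cell markers 4 had one, with means between -0.02 and 0.36 (3 above 0, 1 below). Whether any of these markers was expressed cannot be told, since a ratio has no level.

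For each member, the 3 named genes with the most similar array profile were taken by Pearson's r over the 12 values of aged over young, among 3025 genes. These arrays share 3 RNA pairs and their dyes, so r describes likeness on these arrays. Khdc3 was closest to Spsb3 (0.941), Aplp2 (0.920) and Cog3 (0.914). With the sign not turned, these r were 0.549, 0.644 and 0.167. Oog2 was closest to Ap1m2 (0.969), Pcf11 (0.968) and Csgalnact1 (0.964), with 0.907, 0.917 and 0.890 when the sign was not turned. Tcl1b1 was closest to Hoatz (0.984), Pnpla2 (0.976) and Wapl (0.971), with 0.977, 0.937 and 0.427 when the sign was not turned. For Zbed3 the genes were Myo10 (0.899), Jph3 (0.884) and Ppil2 (0.862), with 0.819, 0.431 and 0.560 unturned. For Btg4 they were Serinc3 (0.917), Abcc3 (0.906) and Oaz1 (0.899), with 0.847, 0.573 and 0.935 unturned.

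**Figure D4:**
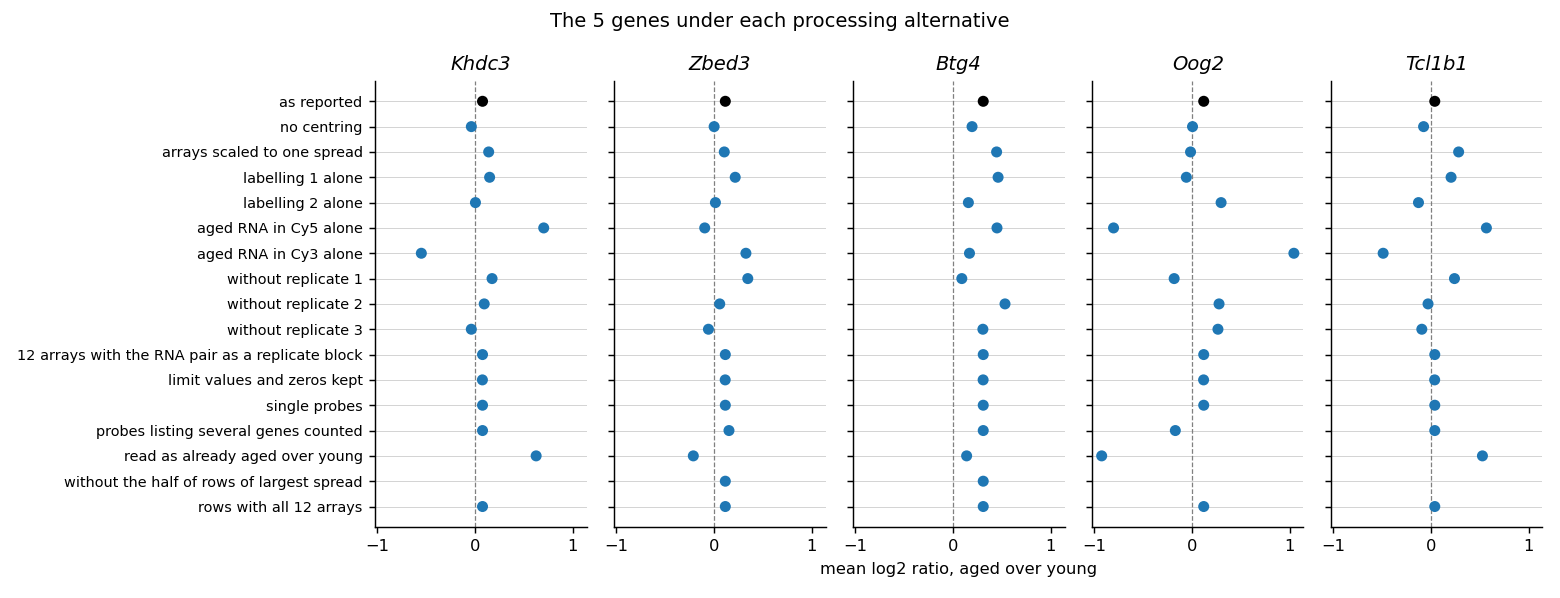
Mean log2 ratio of aged over young for each of the 5 genes (horizontal axis) under each processing alternative (rows), with the reported value in black. No point is drawn for Khdc3, Oog2 and Tcl1b1 where the rows of largest spread were removed. Btg4 is right of 0 in every row, and the other 4 genes lie on both sides of 0. Khdc3 is at 0.70 with aged RNA in Cy5 alone and at -0.55 with aged RNA in Cy3 alone, and Oog2 at -0.80 and 1.04.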

How the data were processed

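Total RNA of aged and young mouse oocytes was measured on 12 two-colour arrays. The authors deposited 1 ratio per probe and array. It was taken to be log10 from the values, which stop at 2 in either direction. Not given in the sources used here were the scanner software, background correction, dye normalization, ratio direction and genome build. Without intensities the depth of each signal is unknown. The deposited log10 values were converted to log2 and centred on each array's median. The 1215 values at the limit and the 513 values of exactly 0 (0.638% in all) were treated as missing. The sign was turned where aged RNA was in Cy3. Arrays of 1 orientation were averaged within a pair, then both orientations with equal weight. Probes were named by the platform annotation, which can be old: 4262 list 1 gene, 6822 several and 11491 none. Probes of 1 single gene were averaged, and the others were rows of their own. Rows with a value in every pair were tested.

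The 3 pair values were tested against 0 with limma 3.58.1 in R 4.3.3 (lmFit and eBayes, two-sided, Benjamini-Hochberg, threshold 0.05). Dye effects and differences among pairs came from a limma model of 12 arrays. The fits were also run on simulated data, with independent array noise and the same dye part in all pairs. Dye parts that differ between pairs, as for Tcl1b1, were therefore not checked. All 4 arrays of a pair share RNA, so the tests of the 12 arrays are against the spread between arrays. The genes, lists and tests were chosen with earlier results of these data known. The text names the 5 members, all measured genes of the subcortical complex, oogenesin and Tcl1 lists, the 4 of smallest p of the decay and other oocyte lists, and the 3 of most similar profile. The other genes and shared probes named were chosen after their values were seen. Promoters were read from RefSeq. A planned comparison of protein sequences was not run. Alternatives changed the centring, scaling, labelling, dye, pair, probe summary, filter and reading of the ratio.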

Additional observations from a re-analysis of the deposited data

Results flagged for a closer look

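With the ratios read as Cy5 over Cy3, which was assumed, Khdc3 and Oog2 stood out. Their ratio then depended on which dye held the aged RNA, by a test of that difference itself. Khdc3 had a dye effect of 0.63 on the log2 scale, with aged RNA above young in Cy5 on 6 of 6 arrays and below young in Cy3 on 6 of 6 arrays. Oog2 had a dye effect of -0.92, with aged RNA below young in Cy5 on 6 of 6 arrays and above it in Cy3 on 6 of 6 arrays. If the deposited values already were aged over young, both numbers would be age ratios instead. Neither passed on that reading (limma adjusted p = 0.0960 for Khdc3 and 0.0955 for Oog2). Dye effects were called for 23% of all rows, so these genes are 2 among many. What gives rise to them was not tested. In 21 sets of 4 arrays of 1 pair (the 5 genes and 2 shared probes), 0 held an array far enough from the others to be called an outlier by Dixon's test. With 4 values per set this test can call only a very isolated array, so the count does not show that no array was aberrant. Among the sets not called were those of pair 1 with 1 array at 2.28 (Btg4) and 1 at 3.81 (probe of Pde8b and Zbed3).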

How the results depend on the processing

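No age ratio of the 5 genes passed the threshold under any alternative run, and 4 of the 5 changed sign under some. The causes were not tested. Khdc3 (0.08) was -0.037 with no centring and -0.55 with aged RNA in Cy3 alone, and -0.037 to 0.18 with 1 pair left out. Zbed3 (0.12) was -0.094 with aged RNA in Cy5 alone, -0.21 read as already aged over young, and -0.056 to 0.35 with 1 pair left out. Oog2 (0.12) was -0.013 with scaled arrays, -0.056 with labelling 1 alone, -0.80 with aged RNA in Cy5 alone, -0.17 with probes of several genes counted, -0.92 read as already aged over young, and -0.18 to 0.28 with 1 pair left out. Tcl1b1 (0.04) was -0.074 with no centring, -0.13 with labelling 2 alone, -0.49 with aged RNA in Cy3 alone, and -0.092 to 0.24 with 1 pair left out. Btg4 was 0.09 to 0.53 with 1 pair left out.

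Rows called for age numbered 0, against 13 with no centring, 0 to 43 with 1 pair left out (43 without pair 1) and 284 in a fit of 12 arrays with the RNA pair as a replicate block. In the block fit, 0 of the 5 genes passed, with Btg4 at 0.31 (limma adjusted p = 0.459). Rows with a dye effect numbered 4906, against 0 to 6202 with 1 pair left out (0 without pair 2 or pair 3). Rows with a difference among pairs numbered 1236, against 441 with scaled arrays and 424 to 734 with 1 pair left out. Removing the rows of largest spread within a pair removed Khdc3, Oog2 and Tcl1b1, so they have no value there. The settings of list medians and of shared probes were chosen after seeing the data. With 3 pairs and no intensities, probes near background could not be told from the rest.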
